A study of Arabidopsis thaliana with 4 samples.

Results

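Membrane transporters of the CHX, VHA, ZIP and NRT families were followed in above-ground tissue of Arabidopsis thaliana, in wild type and in plants labelled as double mutants of the clock genes LWD1 and LWD2. Probe sets were taken as members when they named 1 gene whose symbol belonged to a list of transporter families. The list ran from ABC transporters, aquaporins and nitrate carriers to metal carriers, cation exchangers and proton pumps. Of 22810 probe sets, 13 were members, each for a different one of the 13356 genes that had a probe set of their own: 7 cation/proton exchangers (CHX), 3 isoforms of a vacuolar proton ATPase subunit (VHA-A1, VHA-A2 and VHA-A3), the zinc carrier genes ZIP6 and ZIP9, and the nitrate transporter gene NRT2.5. No aquaporin was among them, so nothing is said here about water channels. In the gene table used for names, 302 symbols fit the family pattern, and the genes other than these 13, among them those of 124 ABC symbols and 21 aquaporin-type symbols, are not analysed here as members.

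The study compared wild-type plants with the lwd1lwd2 double mutant. Per the design text, 2 biological replicates of each genotype were hybridised. All plants had grown for 31 days in days of 12 h light and 12 h dark, and above-ground tissue was collected 5 to 9 h after lights-on. The accession of the plants and the mutant alleles are not given in the sources used here, and no label says how many plants made up a sample. LWD1 and LWD2 themselves are not named on these probe sets here, so the genotypes were not checked against them. In such bulk tissue, fewer cells of a type and less RNA per cell cannot be told apart.

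Transport across membranes in plants is powered mainly by proton gradients. The vacuolar ATPase pumps protons into the vacuole and the trans-Golgi network, and its membrane-spanning subunit a decides in which of these compartments the pump resides. Cation/proton exchangers of the CHX family move potassium and related ions in exchange for protons, and many CHX genes are known from pollen. Proteins of the ZIP family carry zinc and other divalent metals into the cytosol, while NRT2 and NPF proteins carry nitrate and, for some NPF members, hormones or glucosinolates.

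Median array signals were 162.4 and 161.7 in wild type, against 180.9 and 176.1 in the mutant, so both mutant arrays had the higher median. Over tested probe sets on the log2 scale, the correlation was 0.972 within each genotype and 0.932 to 0.947 across genotypes. Of 44 marker genes for mesophyll, guard cells, phloem, xylem, pollen, seed and root, 3 were named. The mesophyll gene RCA, which encodes Rubisco activase, had signals of 27927 and 29534 in wild type, against 20801 and 25786 in the mutant. The guard cell gene FAMA ranged from 283 to 369, and the root-associated gene PYK10 from 934 to 1810, over the 4 arrays. The log2 differences of RCA, FAMA and PYK10 were −0.31, 0.09 and −0.30, and none passed the test described next. The part of cell composition in the results below was not tested.

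No transporter member passed the test for a difference between the genotypes. Differences were computed as mutant minus wild type on log2(signal + 16) and tested with limma over 13647 probe sets. Those were the probe sets left when the 40% with the lowest mean were removed, which placed the cutoff at a signal of about 91.5. Of the 13 members, 5 lay above the cutoff and 8 below it. Among the 5 tested members 0 were higher and 0 lower in the mutant at a Benjamini-Hochberg adjusted p of 0.05, where 5.57% of all tested probe sets passed in either direction. At an unadjusted p of 0.05 the members again numbered 0, against 19.9% of all tested probe sets. With so few members tested, a count of 0 stands near that background. Their median log2 difference was 0.08, beside 0.05 for all tested probe sets, and their median size of difference was 0.08, beside 0.24. The signals of the 2 genotypes overlapped for all 5 tested members, and the genotypes were separate for 51.5% of all tested probe sets. With 5 members, this is not read as a trait of transporter genes.

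**Figure D1:**
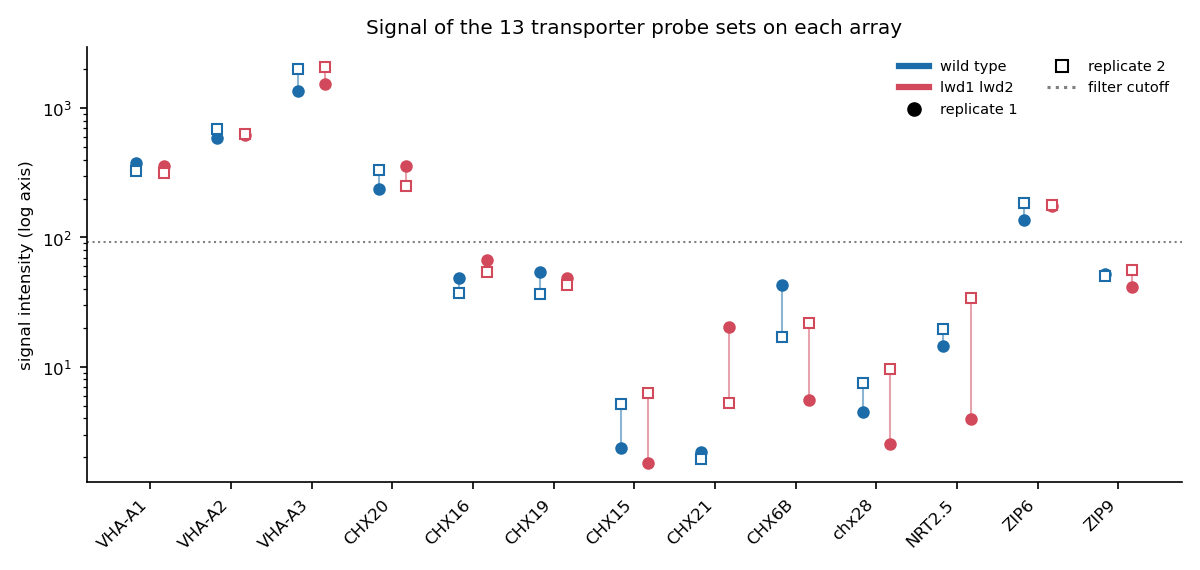
Signal of each of the 13 members on the 4 arrays, on a log axis, with wild type in blue, the mutant in red, replicate 1 filled and replicate 2 open. Lines join the replicates, and the dotted line is the filter cutoff of 91.5. The 3 VHA-A isoforms, CHX20 and ZIP6 lie above the cutoff, and their blue and red points overlap.

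The 3 isoforms of the vacuolar ATPase subunit a showed small differences between the genotypes. VHA-A1, the isoform of the trans-Golgi network, had signals of 376 and 328 in wild type, against 356 and 316 in the mutant. One mutant array of VHA-A1 lay inside the wild-type range and the other just below it, and its log2 difference was −0.06 ± 0.21 (SE, n = 2 per genotype, limma adjusted p = 0.899). VHA-A2, an isoform of the vacuolar membrane, had signals of 582 and 695 in wild type, against 619 and 625 in the mutant. Both mutant values of VHA-A2 fell between the wild-type values, with a log2 difference of −0.03 ± 0.19 (adjusted p = 0.949, limma). VHA-A3, the other isoform of the vacuolar membrane, had signals of 1351 and 1988 in wild type, against 1544 and 2085 in the mutant. In both genotypes of VHA-A3 replicate 2 was the higher array, and its replicates lay 0.55 (wild type) and 0.43 (mutant) apart on the log2 scale, beside a genotype difference of 0.13 ± 0.23 (SE, adjusted p = 0.80, limma).

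Among the cation/proton exchangers, CHX20 was the 1 member of 7 with a signal above the cutoff. CHX20 is known from guard cells, where it takes part in osmotic regulation. Its signals were 235 and 333 in wild type, against 355 and 249 in the mutant, so the genotypes alternated when the arrays were ordered by signal. The replicates of CHX20 differed by 0.47 and 0.48 on the log2 scale, several times the difference between genotypes of 0.08 ± 0.25 (SE, adjusted p = 0.892, limma). FAMA, the guard cell regulator named above, had signals of 307 and 298 in wild type, against 283 and 369 in the mutant, and overlapped likewise.

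ZIP6, a member of the zinc carrier family, had signals of 136 and 185 in wild type, against 175 and 179.5 in the mutant. Both mutant arrays of ZIP6 lay between the wild-type arrays, with a log2 difference of 0.15 ± 0.25 (SE, adjusted p = 0.795, limma). The 95% intervals of the 5 tested members ran at the widest from −0.52 (VHA-A1) to 0.70 (ZIP6) on the log2 scale, a 1.43-fold fall to a 1.63-fold rise. A 2-fold change in either direction lay outside the interval of every tested member. Changes inside a member's interval were not excluded with 2 arrays per genotype, and the absence of a call does not show equal levels. The intervals are not adjusted for the number of probe sets, and their bounds are not the smallest change that the test can call.

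The other 8 members were too dim to be tested with the filter in place. In a fit without the filter none of them passed, with limma adjusted p from 0.507 to 0.994, unadjusted p of at least 0.133, and 1.13% of all 22746 probe sets past the adjusted threshold. No detection calls were used here, so a low signal is given as measured and is not called absence. Of these 8 members, 4 had positive and 4 negative differences, and 5 had a difference of at most 0.07 in size.

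CHX16 and CHX21 were the 2 of the 13 members whose genotypes did not overlap, where 45.2% of all probe sets did not overlap. CHX16 had signals of 48.9 and 37.2 in wild type, against 66.8 and 54.3 in the mutant. Its log2 difference was 0.38 ± 0.36 (SE, adjusted p = 0.692 without the filter, limma), about the size of its own error. CHX21 had signals of 2.2 and 1.93 in wild type, against 20.4 and 5.27 in the mutant. Both wild-type arrays of CHX21 lay far below the 16 added before the logarithm, and mutant replicate 1 stood apart from the other arrays. The log2 difference of CHX21 was 0.62 ± 0.37 (SE, adjusted p = 0.507 without the filter, limma), and its mutant replicates differed by 0.78.

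CHX6B had the largest negative difference of the 13. Its signals were 42.9 and 16.9 in wild type, against 5.5 and 22.0 in the mutant, so mutant replicate 2 lay inside the wild-type range. The log2 difference was −0.62 ± 0.46 (SE, adjusted p = 0.602 without the filter, limma), less than the replicate gaps of 0.84 and 0.82. CHX19 had signals of 54.0 and 36.6 in wild type, against 48.6 and 42.7 in the mutant, with the mutant arrays inside the wild-type range. CHX15 and chx28 lay below the added 16 on all 4 arrays. The signals of CHX15 were 2.35 and 5.15 in wild type, against 1.82 and 6.27 in the mutant. Those of chx28 were 4.44 and 7.54 in wild type, against 2.53 and 9.61 in the mutant, so that for both genes the mutant pair enclosed the wild-type pair.

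NRT2.5, a high-affinity nitrate transporter known from plants short of nitrogen, had signals of 14.6 and 19.7 in wild type, against 3.92 and 34.0 in the mutant. The mutant arrays of NRT2.5 enclosed the wild-type arrays and differed from each other by 1.33 on the log2 scale, the widest replicate gap among the 13 members, beside a difference between genotypes of −0.07. ZIP9, a zinc carrier gene known to respond to zinc deficiency, had signals of 51.9 and 50.0 in wild type, against 41.6 and 55.8 in the mutant. The wild-type arrays of ZIP9 lay between the mutant arrays. Over all 13 members, the larger of the 2 replicate gaps exceeded the difference between genotypes for 12, the exception being CHX16.

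**Figure D2:**
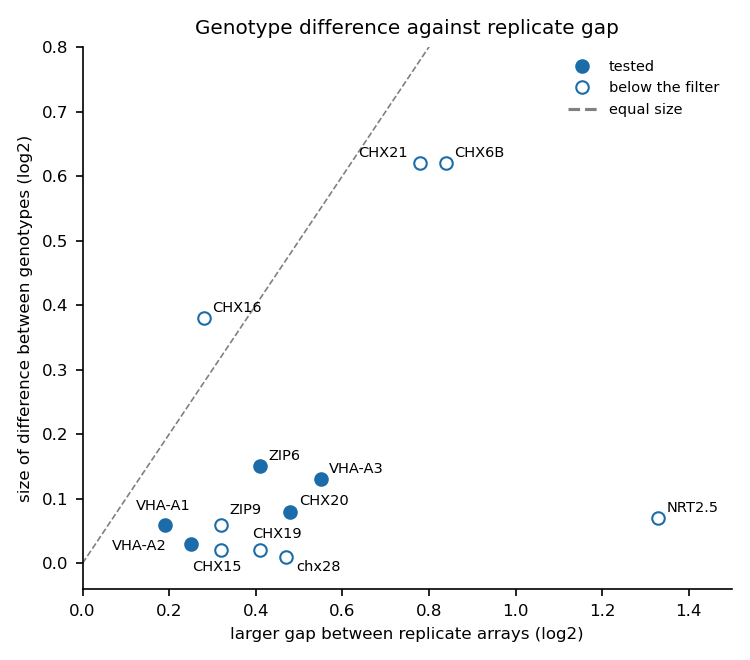
Size of the difference between genotypes against the larger gap between replicate arrays for the 13 members, both on the log2 scale, with the values of the fit without the filter. Filled points passed the filter, open points did not, and the dashed line marks equal size. All points except CHX16 lie below the line, and NRT2.5 lies farthest to the right at a gap of 1.33.

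Further transport genes were read from the same fit in a pair of wider lists. The first held 13 probe sets whose gene carries a name of the same families as a synonym in the gene table: 11 of the NPF family and 2 further subunits of the vacuolar ATPase. The second held 19 probe sets of other transport families: 8 glutamate receptor-like channels, 3 tonoplast monosaccharide carriers, 3 organic cation carriers, 2 MTP metal carriers, and 1 each of NRAMP, PUP and P-type ATPase genes. Of the first list 9 were tested, with 0 higher and 1 lower in the mutant, and of the second 10 were tested, also with 0 higher and 1 lower. Of all tested probe sets 2.73% were higher and 2.84% lower, and 1 call in lists of this length is too few to read against those shares. The median log2 difference was −0.17 in the first list and 0.04 in the second.

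NPF6.4 (AT3G21670), known as the nitrate transporter NRT1.3, fell in the mutant. Its signals were 5014 and 4286 in wild type, against 2511 and 2728 in the mutant, with the mutant arrays below the wild-type arrays by more than either replicate gap. The log2 difference was −0.82 ± 0.17 (SE, n = 2 per genotype), a 1.77-fold fall (limma adjusted p = 0.0203, range over the alternatives 0.0109 to 0.0747). The call was lost without the filter on dim probe sets (adjusted p = 0.0747), without wild-type replicate 1 (adjusted p = 0.0554) and without mutant replicate 1 (adjusted p = 0.0562, limma).

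MTP11 (AT2G39450), which encodes a manganese carrier of the secretory pathway, fell by a similar factor. Its signals were 1319.7 and 1583 in wild type, against 817 and 760.1 in the mutant, and the genotypes were separate. The log2 difference was −0.86 ± 0.19 (SE), a 1.82-fold fall (limma adjusted p = 0.0232, range over the alternatives 0.00989 to 0.0949). The call was lost without the filter (adjusted p = 0.0669), without wild-type replicate 2 (adjusted p = 0.0949) and without mutant replicate 2 (adjusted p = 0.0678, limma). MTPA1, the other MTP gene, lay between 2.17 and 4.71 on all 4 arrays.

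NPF3.1 (AT1G68570), a carrier of nitrite and gibberellin, did not pass. Its signals were 1067 and 1420 in wild type, against 641 and 848 in the mutant, which do not overlap. The log2 difference was −0.73 ± 0.22 (SE, limma adjusted p = 0.0828, range over the alternatives 0.0223 to 0.307), and it passed after centring each array on its median (adjusted p = 0.0472), without wild-type replicate 1 (adjusted p = 0.0223) and without mutant replicate 2 (adjusted p = 0.0377).

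The glucosinolate transporter genes GTR1 (NPF2.10) and GTR2 (NPF2.11) had differences of opposite sign, and neither passed. NPF2.10 had signals of 1563 and 1612 in wild type, against 2117 and 1639 in the mutant, a log2 difference of 0.23 ± 0.19 (SE). NPF2.11 had signals of 945 and 998 in wild type, against 668 and 878 in the mutant, a log2 difference of −0.34 ± 0.20 (SE). For both genes the genotypes did not overlap, and mutant replicate 2 was the array nearer to the wild-type pair. NPF6.2, known as the petiole nitrate transporter NRT1.4, had signals of 2775 and 3124 in wild type, against 1973 and 3281 in the mutant, which overlap. NPF4.3 and NPF4.4 had log2 differences of 0.16 and 0.05, and the remaining NPF4.1, NPF4.2, NPF4.5 and NPF5.13 lay below the cutoff. For the 6 NPF genes tested and not called, 95% intervals ran at the widest from −1.21 to 0.75. The interval of NPF3.1 held a 2-fold fall.

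The vacuolar ATPase subunits D and F also showed small differences. VHA-D had signals of 3657 and 2957 in wild type, against 3230.2 and 3123 in the mutant, with a log2 difference of −0.05 ± 0.18 (SE). VHA-F had signals of 3917 and 3914 in wild type, against 3337 and 3641 in the mutant, and the genotypes were separate, with a log2 difference of −0.17 ± 0.17 (SE). None of these 5 vacuolar ATPase genes passed (limma adjusted p from 0.624 to 0.949), and their intervals ran at the widest from −0.53 to 0.63. Subunit c genes share probe sets with each other and are not named here.

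**Figure D3:**
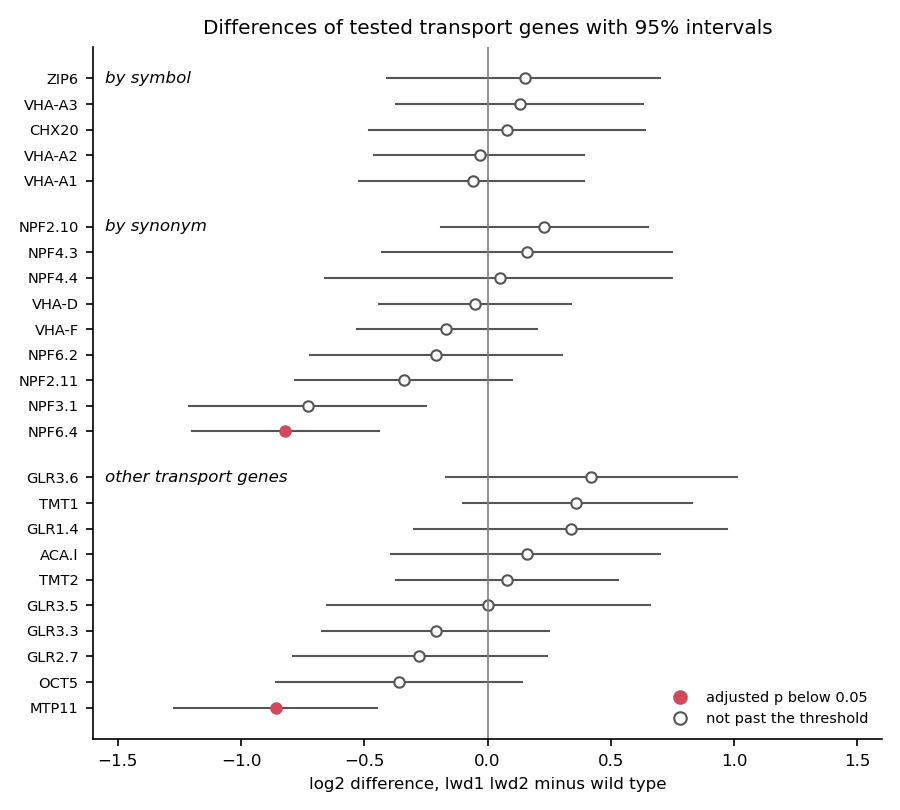
Log2 differences, mutant minus wild type, of the 24 tested probe sets of the 3 lists, with 95% intervals from limma. Red points passed an adjusted p of 0.05 and open points did not. NPF6.4 at −0.82 and MTP11 at −0.86 are the called genes, and the intervals of all 5 members by symbol cross 0.

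Of the 8 glutamate receptor-like channel genes, 5 were tested and none passed. Their log2 differences ran from −0.28 for GLR2.7 to 0.42 for GLR3.6. The 95% intervals of these 5 ran at the widest from −0.79 to 1.01, and that of GLR3.6 held a 2-fold rise. GLR3.3 and GLR3.6 encode channels known from long-distance wound signalling. GLR3.3 had signals of 361 and 410 in wild type, against 301 and 363 in the mutant, with mutant replicate 2 inside the wild-type range. GLR3.6 had signals of 105 and 118 in wild type, against 135 and 177 in the mutant, and the genotypes were separate (0.42 ± 0.27, SE, limma adjusted p = 0.42). GLR2.7, GLR2.8 and GLR2.9 carry consecutive locus numbers, and whether a probe set of 1 also reads the others was not tested. Over the 4 arrays the signals of GLR2.7 ran from 184 to 256, those of GLR2.8 from 4.47 to 39.5 and those of GLR2.9 from 3.54 to 6.61. Signals of different probe sets are not read as relative levels of these genes.

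The tonoplast monosaccharide carriers TMT1 and TMT2, which load sugars into the vacuole, did not pass. TMT1 had signals of 362 and 294 in wild type, against 451 and 400 in the mutant, and the genotypes were separate, with a log2 difference of 0.36 ± 0.21 (SE, limma adjusted p = 0.371). TMT2 had signals of 683 and 787 in wild type, against 679 and 891 in the mutant, which overlap. TMT3 lay below the cutoff, at 39.0 and 44.4 in wild type, against 69.6 and 75.8 in the mutant, and its log2 difference of 0.62 ± 0.35 (SE) did not pass without the filter (adjusted p = 0.482, limma). OCT5, an organic cation carrier, had a log2 difference of −0.36 ± 0.23 (SE, limma adjusted p = 0.42), and the P-type ATPase gene ACA.l one of 0.16 ± 0.25 (SE). Over the 3 lists, 24 of 45 were tested, 12 with a positive and 12 with a negative difference, and the median was −0.01.

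The direction of the small member differences depended on which arrays were used. For 10 of the 13 members the replicates stood in the same order in both genotypes. Leaving out 1 array leaves the replicate numbers unbalanced. Compared by replicate number, VHA-A3 was higher in the mutant both times (1544 against 1351, 2085 against 1988). VHA-A1 was lower both times (356 against 376, 316 against 328), while CHX20, VHA-A2 and ZIP6 changed sign between the replicate numbers. With each array left out in turn, the log2 difference of CHX20 ran from −0.16 to 0.33 and that of VHA-A3 from −0.15 to 0.41. No member passed in any of those fits. In contrast, NPF6.4 and MTP11 stayed negative in all of them, which their lack of overlap fixed in advance.

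**Figure D4:**
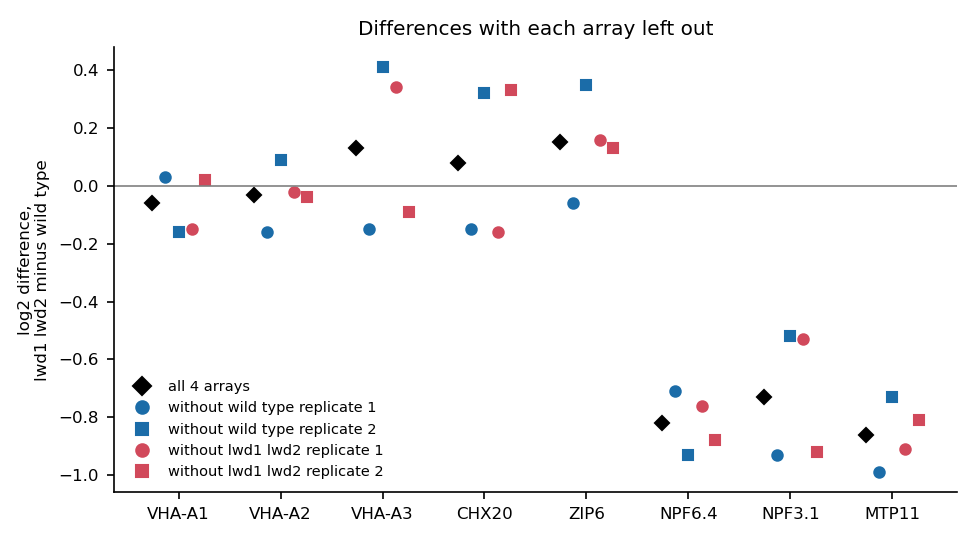
Log2 differences of the 5 tested members and of NPF6.4, NPF3.1 and MTP11 with all 4 arrays (black) and with each array left out. The points of the 5 members lie on both sides of 0, while those of NPF6.4, NPF3.1 and MTP11 lie between −0.99 and −0.52.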

How the data were processed

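The authors deposited 1 linear signal intensity per probe set and array, from biotin-labelled RNA (10 µg of total RNA per the labels' protocols). The program behind these values is not given in the sources. All arrays shared a trimmed mean of 500.05 (2% removed at each end), so they had been scaled to it and a change in total mRNA cannot be seen. Array medians of log2(signal + 16) lay within 0.3 of each other and no further scaling was done. Control probe sets (64) and the dimmest 40% were left out, and limma 3.58.1 in R 4.3.3 (genotype only, intensity trend, two-sided, Benjamini-Hochberg adjustment over 13647 probe sets) tested the rest. A fold on this scale understates changes of dim genes.

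Probe sets were named by a given annotation table whose symbols were brought up to date with the TAIR10.1 genes. Of 22810 probe sets, 13513 had 1 gene (1579 with a symbol other than a locus tag), 503 had several and 8730 were unlisted. AAPT2, which begins like a member but is no transporter, was not counted. Glutamine amidotransferase GAT1_2.1, ALATS and GPT were removed from the second wider list by name. The rule for named genes covered called genes and, in each family, members by size of difference and by mean signal; here all 13 members are described. Genes not called of the wider lists were chosen after their values were seen. Members and lists were chosen with earlier results of these data known, and the synonym list was added after the gene table was seen. No member gene had more than 1 probe set. No sequence was used here, so a planned promoter search was not run. Figures were drawn with matplotlib 3.10.9.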

Additional observations from a re-analysis of the deposited data

How the results depend on the processing

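The count of called members was 0 under every alternative run: an added value of 64 or 1, quantile normalization, centring on the median, no filter, a filter at 60%, a robust prior, the replicate block, and each array left out (0 to 0). It was also 0 with AAPT2 counted, and 1 (NPF6.4) with the genes by synonym counted. Over all probe sets, calls numbered 760, 258 without the filter and 561 to 1095 with 1 array left out. The labels give both genotypes replicates 1 and 2, without saying that a number marks a shared batch, and the deviations of same-numbered arrays correlated at 0.093. With the replicate number as a block, 676 probe sets passed, 0 of them members, and NPF6.4 (adjusted p = 0.0332) and MTP11 (adjusted p = 0.0366) kept their calls. The members' median difference of 0.08 ran from −0.15 to 0.32 with 1 array left out, and that of the VHA-A isoforms, −0.03, from −0.15 to 0.09. After centring on the median, the members' median difference was −0.04 and that of the VHA-A isoforms −0.16. The first wider list had 1 call, 2 after centring on the median, 0 without the filter, and 0 (without mutant replicate 1) to 2 (without mutant replicate 2) with 1 array left out. The second wider list had 1 call, 0 without the filter and 0 to 1 with 1 array left out. CHX20 turned from 0.08 to −0.00072 after quantile normalization and to −0.04 after centring, which moved the median of all tested probe sets by −0.13. With 1 array left out, CHX20 ran from −0.16 to 0.33, VHA-A1 from −0.16 to 0.03, VHA-A2 from −0.16 to 0.09, VHA-A3 from −0.15 to 0.41 and ZIP6 from −0.06 to 0.35. The cause of these changes was not tested, beyond the fewer arrays used. The split of all calls was 372 higher and 388 lower, and after centring 257 higher and 572 lower. When a genotype keeps 1 array, that array is assumed to vary like those of the other genotype.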
